A study of Mus musculus with 15 samples.

Results

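TRiC, also called CCT, is the chaperonin of the cytosol, and the 8 genes that encode its subunits are described here: Tcp1 (CCT1, alpha), Cct2 (beta), Cct3 (gamma), Cct4 (delta), Cct5 (epsilon), Cct6a (zeta), Cct7 (eta) and Cct8 (theta). They were taken by symbol from the 20207 genes of each table, and all 8 were found in all 15 tables. The mRNA came from NIH3T3 cells, a line of mouse embryonic fibroblasts, into which DD-GFP had been stably introduced. DD-GFP is superfolder GFP joined to L106P, a mutant FKBP that stays folded only while the ligand Shield-1 (S1) is bound. The cells were a population sorted by FACS for high DD-GFP, and the labels name neither clones nor separate cultures, so p-values measure the spread between these samples, which may be technical.

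All groups carried the same transgene and had been grown with S1. The control group (labelled cont, time 0, no stress) kept S1 and comprised 5 samples. In the other groups, labelled as unfolded DD, S1 had been withdrawn by adding purified FKBP(F36V) protein to the medium, and cells were harvested after 45 min (3 samples), 135 min (3 samples) or 405 min (4 samples). The question put to the subunits was whether their mRNAs changed after the DD became unfolded, and whether they changed together.

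The TRiC complex is a pair of stacked rings in which every subunit has its own fixed place. Newly made polypeptides enter the cavity and are released after the ring closes and reopens with ATP hydrolysis. Actins and tubulins depend on it, as do many proteins with WD40 propellers. Prefoldin hands substrates to the ring and phosducin-like proteins act with it. Because each ring needs all of its paralogous subunits, their mRNAs are of interest as a set. Heat shock factor 1 (HSF1), which drives heat shock genes through repeats of the letters GAA, has also been linked to TRiC subunit genes.

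The promoters that carried such repeats are shown because the subunits are compared below with heat shock genes. RefSeq windows on GRCm38.p6, from 250 bases before to 50 bases after an annotated start, were at hand for 7 of the 8 subunit genes, all but Cct4, with 9 windows in all. The heat shock element was searched on both strands in a 2-unit form, GAANNTTC or TTCNNGAA, and in a 3-unit form with a further alternating unit at the same spacing. The 3-unit form matched none of the 9 subunit windows and 0.6% of all 32851 promoter windows of the same length. The 2-unit form matched 1 window each of Cct2, Cct5 and Cct6a and 15.1% of all windows. Of the 12 heat shock genes with a window, 2 (Hsph1 and Chordc1) held the 3-unit form and 9 held the 2-unit form, which is part of the longer one. Matches are descriptions of letters and not of bound sites. In the windows printed 5′ to 3′ here the capitals mark these elements.
Cct6a, chr5:129787106-129787405, plus strand: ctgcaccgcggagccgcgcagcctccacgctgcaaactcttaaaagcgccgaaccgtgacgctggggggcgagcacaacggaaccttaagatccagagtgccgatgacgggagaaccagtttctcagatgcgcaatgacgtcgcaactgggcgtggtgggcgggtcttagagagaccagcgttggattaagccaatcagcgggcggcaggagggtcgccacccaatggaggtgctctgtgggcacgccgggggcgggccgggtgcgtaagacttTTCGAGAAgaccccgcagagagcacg
Cct5, chr15:31601797-31602096, minus strand: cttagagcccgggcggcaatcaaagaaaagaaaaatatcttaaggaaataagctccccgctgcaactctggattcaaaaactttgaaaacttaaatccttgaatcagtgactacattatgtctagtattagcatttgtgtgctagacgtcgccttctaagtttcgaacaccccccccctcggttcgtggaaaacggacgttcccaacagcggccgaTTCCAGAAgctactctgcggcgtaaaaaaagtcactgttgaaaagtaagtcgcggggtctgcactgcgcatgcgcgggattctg
Cct2, chr10:117063326-117063625, minus strand: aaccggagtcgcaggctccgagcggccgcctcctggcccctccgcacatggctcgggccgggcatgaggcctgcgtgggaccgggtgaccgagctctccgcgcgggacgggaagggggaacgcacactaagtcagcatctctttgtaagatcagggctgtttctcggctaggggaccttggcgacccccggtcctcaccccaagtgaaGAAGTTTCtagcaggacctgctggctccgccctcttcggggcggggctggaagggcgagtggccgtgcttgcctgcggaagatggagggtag
Hsph1, chr5:149636287-149636586, minus strand: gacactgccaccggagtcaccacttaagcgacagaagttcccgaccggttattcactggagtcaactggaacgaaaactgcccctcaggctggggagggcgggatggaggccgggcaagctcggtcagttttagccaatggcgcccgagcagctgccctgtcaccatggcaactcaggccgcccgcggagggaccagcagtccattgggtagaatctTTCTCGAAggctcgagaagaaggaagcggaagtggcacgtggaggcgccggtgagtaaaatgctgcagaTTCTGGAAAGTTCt

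The match lay at position 24 in Cct6a, at -34 in Cct5 and at -42 in Cct2, counted from the annotated start base as 0. Hsph1, which encodes a nucleotide exchange factor of HSP70, is shown for contrast. It held a 2-unit match upstream of its start and a 3-unit match near the end of the window. Of the heat shock genes with a window that rose at 135 or 405 min, Hsph1, Hspa1b, Bag3 and Hspb8 held an element. Dnajb1 and Hsf2 rose and held neither form. Chordc1 and the mitochondrial chaperonin genes Hspd1 and Hspe1 held the 3-unit form but did not pass the test at either time. Dnaja1 and Dnajb4 held only the 2-unit form and did not pass. Whether an element went with a rise was not tested. A CCAAT box, searched as CCAAT or ATTGG, was present in Tcp1 (1 match), Cct3 (2), Cct6a (2) and Cct7 (3), against 37.4% of all windows. GC boxes (GGGCGG or CCGCCC) matched 8 of the 9 subunit windows and 35.7% of all windows. An ETS motif (CCGGAAGT or ACTTCCGG) was found in Tcp1 and Cct8 and in 3.89% of all windows. The core of the antioxidant response element (TGACNNNGC or GCNNNGTCA) was found in Tcp1, Cct2 and Cct6a and in 12.4% of all windows. A TATA box (TATAAA or TTTATA) matched none of the subunit windows and 13.6% of all windows.

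All 8 genes are protein-coding and lie on 8 different chromosomes. In the mm9 coordinates of the deposited tables Tcp1 spans chr17:13109331-13117933, Cct2 chr10:116488054-116500870, Cct3 chr3:88101057-88125688 and Cct4 chr11:22890593-22903336. Cct5 spans chr15:31520639-31531559, Cct6a chr5:130293261-130322231, Cct7 chr6:85401499-85418471 and Cct8 chr16:87483570-87496114. The GENCODE annotation places a gene on the other strand over Tcp1 (Acat3), Cct7 (1700040I03Rik) and Cct8 (Usp16). It also places SNORA29 and Snora20 over Tcp1 and SNORA22 over Cct6a, and in the deposited tables Snora15 overlaps Cct6a. These are overlaps of whole gene spans, and overlap of exons was not examined. Whether counting used the strand is not given in the sources used here, so reads of those partners may be among the counts of the subunits. The transcripts of Tcp1, Cct3, Cct4 and Cct7 had 2, 3, 1 and 3 matches of at least 500 bases and 85% identity elsewhere in the genome, and counting could have split reads between them, so these values are uncertain. No such match was found for Cct2, Cct5, Cct6a or Cct8.

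The libraries held between 6652539 and 30258404 counts, and every subunit had between 1157 and 47400 counts in every library, so counting error was small beside the spread between samples. The libraries fell apart by base composition. The slope of log2 CPM (counts scaled to the library total) on the GC content of a gene's exons lay between -1.42 and -0.67 log2 units per 10 points of GC in 10 libraries, called library set 1, and between -0.39 and 0.028 in 5 libraries, called library set 2. Set 2 comprised control 2, the third 45-min sample and 405-min samples 1, 2 and 4. These sets are groups of libraries seen in the data and are not named in the labels. At 135 min all 3 samples were of set 1 and at 405 min 3 of 4 were of set 2, so the subunit comparisons are also given with library set in the model. Fibroblast markers were present (8 of 8, with control RPKM means from 10.1 for Pdgfrb to 1385 for Vim), whereas 8 markers of other cell types summed to between 0.65 and 1.61 RPKM in controls and 7 of them were at 0 in at least 1 library.

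Every subunit was well expressed before S1 was withdrawn. RPKM (reads scaled to transcript length and library size), which allow genes of different length to be compared, averaged 387 ± 124 for Cct4 (SD, n = 5 controls), the highest of the 8. Cct5 followed at 211 ± 56.4, Cct2 at 176 ± 47.4 and Cct3 at 163 ± 34.8. Cct6a stood at 117 ± 27.9, Cct8 at 112 ± 39.2, Tcp1 at 101 ± 24.5 and Cct7 at 58.9 ± 26.5. Cct4 and Cct5 are the subunits known to form rings of a single kind when made alone.

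By the deposited RPKM this order held in every control library at only some steps. Cct3 exceeded Cct6a in 5 of 5 controls and in 15 of 15 libraries, with a mean log2 ratio of 0.49 ± 0.11 (SD, n = 5). Cct2 exceeded Cct3 by 0.093 ± 0.20, Cct6a exceeded Cct8 by 0.13 ± 0.29 and Cct8 exceeded Tcp1 by 0.083 ± 0.27. These neighbours did not differ beyond their spread in the controls. Counted over libraries, Cct2 exceeded Cct3 in 12 of 15, Cct6a exceeded Cct8 in 8 of 15 and Cct8 exceeded Tcp1 in 14 of 15. Cct4 lay above Cct5 by 0.85 ± 0.56 in controls. It did so in 10 of 10 libraries of set 1 and in 0 of 5 libraries of set 2. The ratio of Cct4 to Cct7, the extremes of the order, ranged from 4.37 to 15.8 in set 1 and from 1.48 to 2.21 in set 2. With CPM per kilobase of GENCODE exon in place of the deposited RPKM, Cct4 was still highest and Tcp1 and Cct7 lowest, but Cct2 and Cct6a ranked above Cct5. Cct3 (control mean 154.8) then ranked below Cct6a (336.5) and Cct8 (241), so its place above Cct6a depended on the length used. The deposited RPKM was low for every subunit in the shallowest control, so the order was read within libraries.

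**Figure D1:**
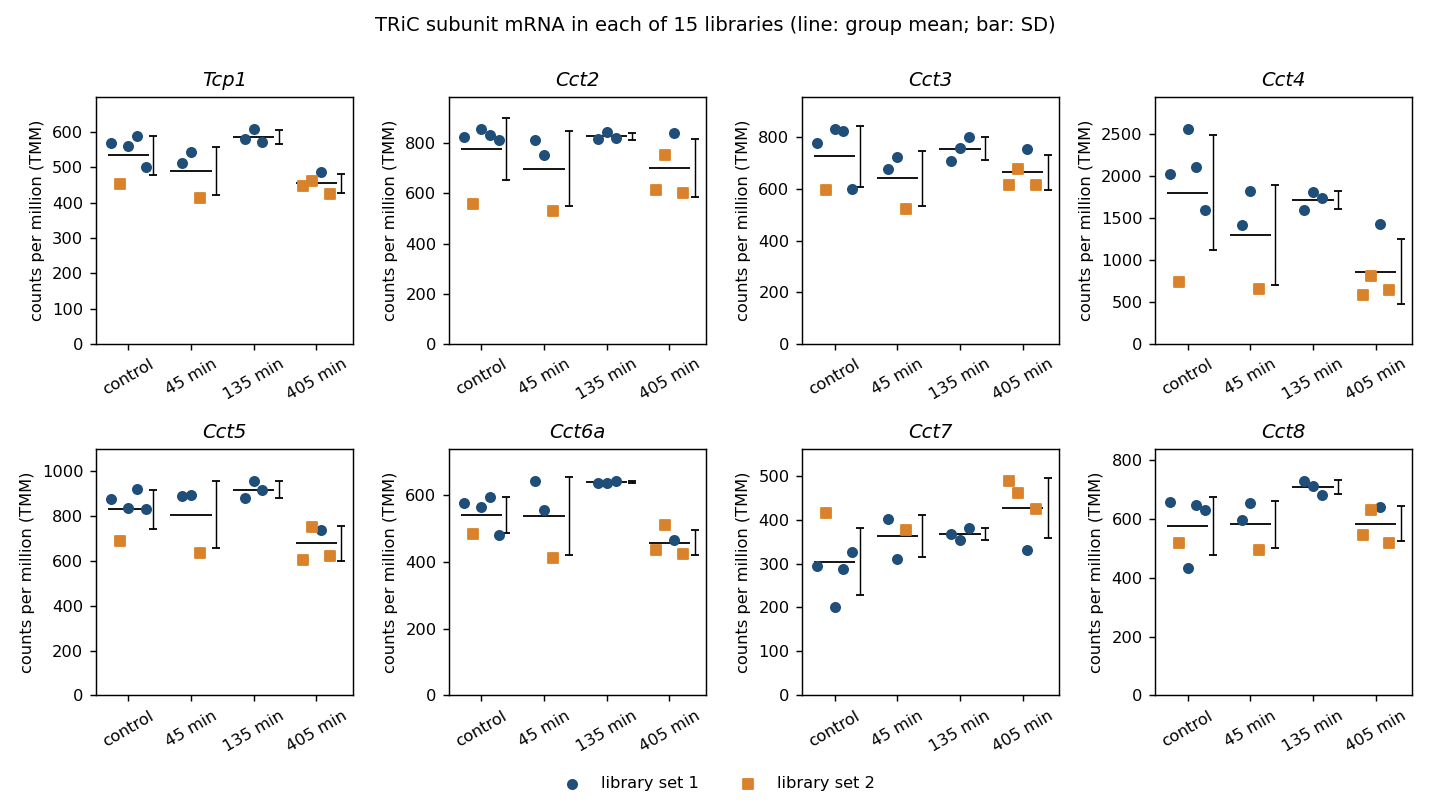
CPM (TMM-scaled, linear axis from 0) of each TRiC subunit in 15 libraries by group, with circles for library set 1, squares for library set 2, a line at the group mean and a bar for the SD. For Cct4 all squares (579 to 803) lie below all circles (1409 to 2550.3), and for Cct6a and Cct8 all 135-min points lie above all control points.

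Over the 15 libraries Cct4 varied more than any other subunit. Its CPM in the controls was 2019, 735, 2550.3, 2097 and 1594. At 45 min it was 1409, 1815 and 648, at 135 min 1596, 1809 and 1729, and at 405 min 579, 803, 1420 and 636. The low values are those of library set 2, and the 405-min values overlap the control range because control 2 (735) is also low.

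Cct7 ran the other way. Its CPM in the controls was 293, 415, 202, 286 and 327, at 45 min 402, 310 and 376, at 135 min 367, 353 and 380.1, and at 405 min 488, 461, 332 and 425. Here the set 2 libraries were among the highest, and control 2 (415) kept the 405-min group from lying wholly above the controls. Within set 2 the 405-min samples (425 to 488) were all above the control (415), and within set 1 the 405-min sample (332) was above all 4 controls (202 to 327).

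Cct6a and Cct8 were highest at 135 min. Cct6a had 574, 483, 562, 594 and 478 CPM in the controls, 641, 555 and 411 at 45 min, 634, 636 and 639.5 at 135 min, and 434, 508, 463 and 421 at 405 min. Cct8 had 656, 519, 432, 646 and 629 CPM in the controls, 597, 652 and 495 at 45 min, 729, 713 and 682 at 135 min, and 547, 629, 639 and 519 at 405 min. In both genes every 135-min sample lay above every control, and at 405 min both overlapped the controls.

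Cct5 and Tcp1 had a similar course with a smaller rise at 135 min. Cct5 had 875, 689, 839, 920.3 and 834 CPM in the controls, 889, 896 and 636 at 45 min, 881, 958 and 916 at 135 min, and 603, 752, 737 and 623 at 405 min. Tcp1 had 568, 453, 559, 588 and 499 CPM in the controls, 512, 542 and 414 at 45 min, 579.8, 607 and 569.8 at 135 min, and 446, 461, 486 and 423 at 405 min. For both, the 135-min samples overlapped the controls and all 405-min samples lay below all 135-min samples. Cct2 averaged 777 ± 123 CPM in controls (SD, n = 5), 699 ± 150 at 45 min, 828 ± 13.6 at 135 min and 703 ± 115 at 405 min. Cct3 averaged 726 ± 119, 641 ± 106, 756 ± 44.9 and 665 ± 67.5 CPM in the same order, and for both genes each time point overlapped the controls.

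At 45 min no subunit passed the test. edgeR's quasi-likelihood test with Benjamini-Hochberg adjustment over 10276 genes called 0 of 8, as it did 0% of all genes tested, and 0 of 8 had an unadjusted p under 0.05. No subunit had every 45-min sample above every control (0.467% of all genes) or below (0.448%). Log2 fold changes against control ran from -0.48 for Cct4 (SE 0.39) to 0.25 for Cct7 (SE 0.19), with 2 of 8 above 0. The 95% confidence intervals of 7 subunits stayed between -0.54 and 0.66. That of Cct4 was wider, from -1.31 to 0.36. In the model with library set 0 of 8 passed, 3 of 8 were above 0, and values ran from -0.33 for Cct4 (SE 0.16) to 0.22 for Cct7 (SE 0.15).

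At 135 min again no subunit passed, but 7 of 8 fold changes were positive. The test called 0 of 8 higher against 0.564% of all genes and 0 of 8 lower against 0.895% (1.46% in either direction), and 0 of 8 had an unadjusted p under 0.05. The largest log2 fold change was that of Cct8, 0.30 (SE 0.16, 95% interval -0.034 to 0.63), or a 1.23-fold higher level. Cct7 followed at 0.27 (SE 0.19) and Cct6a at 0.24 (SE 0.15), while Cct4 stood at -0.072 (SE 0.39). Every 135-min sample was above every control for Cct6a and Cct8, that is for 2 of 8 subunits against 4.79% of all genes, and for no subunit was every sample below (4.75% of all genes). The median of the subunits was 0.14 beside -0.059 for all genes tested. Once library set was in the model 6 of 8 were positive, the median was 0.087, and Cct7 had the largest value, 0.36 (SE 0.15, adjusted p = 0.13 by edgeR). DESeq2 called 0 of 8 as well.

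At 405 min Cct4 fell and no other subunit passed. Its mean dropped from 1799 ± 685 CPM in controls (SD, n = 5) to 859 ± 386 CPM (SD, n = 4). The log2 fold change was -1.07 (SE 0.36, 95% interval -1.84 to -0.29, adjusted p = 0.0459 by edgeR). This made 1 of 8 subunits lower against 13.4% of all genes, and 0 of 8 higher against 9.99% (1 of 8 in either direction against 23.4%). In bulk RNA, fewer transcripts per cell and fewer cells carrying them cannot be told apart. In the model with library set the change was -0.34 (SE 0.17, adjusted p = 0.204). It was -0.55 in set 1 alone, which has 1 sample of 405 min, and -0.14 in set 2 alone, which has 1 control, so these are given as values without a test. Within set 2 the control (735) lay inside the range of the 405-min samples (579 to 803), and within set 1 the 405-min sample (1420) lay below all 4 controls (1594 to 2550.3).

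The Cct4 call held under 7 of 26 alternatives. It was lost on leaving out control 1, 3, 4 or 5, 405-min sample 1, 2 or 4, the first 45-min sample or any of the 135-min samples, with adjusted p between 0.0596 and 0.14, while the log2 fold change stayed between -1.11 and -0.92. Without control 2, the control of set 2, the Cct4 change was -1.26 (adjusted p = 0.00478), and Cct5 (-0.35, adjusted p = 0.0426) and Cct7 (0.62, adjusted p = 0.00705) then passed as well. Without 405-min sample 3, the 405-min sample of set 1, the Cct4 change was -1.42 (adjusted p = 0.0126).

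Cct7 was the subunit with the opposite sign. Its log2 fold change at 405 min was 0.49 (SE 0.18, 95% interval 0.11 to 0.87, adjusted p = 0.0601), a 1.4-fold higher level that missed the threshold. It passed without 405-min sample 3 (0.59, adjusted p = 0.0258) and with DESeq2 (0.47, adjusted p = 0.0368), where 14.6% and 14% of all genes passed upward. With library set in the model Cct7 was at 0.27 (adjusted p = 0.271). The other 6 lay between -0.29 for Cct5 (SE 0.14) and 0.018 for Cct8 (SE 0.14), with adjusted p from 0.121 upward. Over the 8, 3 had an unadjusted p under 0.05, where 41.1% of all genes had one, and the median was -0.19 beside -0.001 for all genes. The median was -0.014 and 4 of 8 were positive in the model with library set. For 0 of 8 was every 405-min sample above every control (6.75% of all genes) or below (6.43%).

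Markers moved in this comparison too. Of the 8 fibroblast markers, 4 passed downward at 405 min (Col3a1 by -0.87, Pdgfrb by -0.70, Vim by -0.61 and Col1a2 by -0.39 on the log2 scale). With library set as a covariate 4 of 8 did so. Of all genes 13.4% and 6.87% passed downward in these fits. At 135 min 1 of 8 passed downward (Pdgfrb by -0.92), against 0.895% of all genes. The summed RPKM of the fibroblast markers was 2717 to 3263 at 405 min and 1694 to 4193 in controls. Markers of other cell types summed to 2.36 to 3.19 RPKM at 405 min and 1 of the 8 was at 0 in all 4 samples. Their part in the subunit values was not tested.

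**Figure D2:**
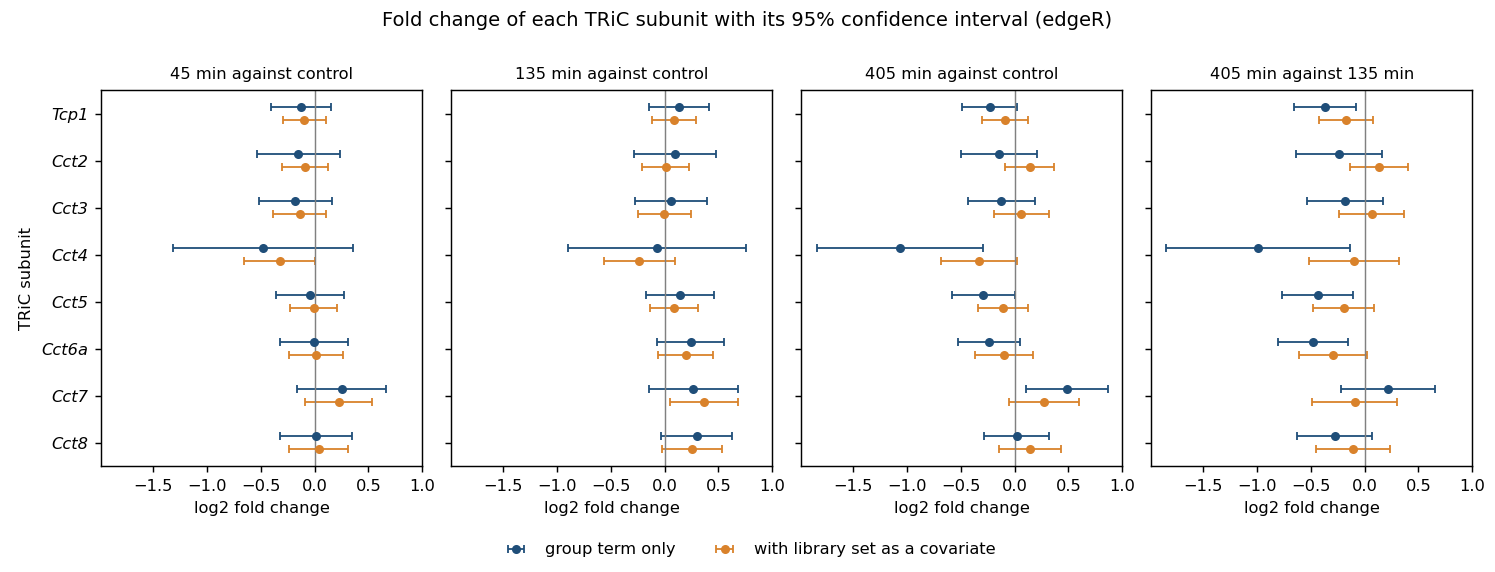
Log2 fold change of each TRiC subunit (points) with its 95% confidence interval (bars) in 4 comparisons, from edgeR with a term for group only and with library set added. Cct4 at 405 min moves from -1.07 to -0.34 once library set is in the model, and its interval then reaches 0.018.

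From 135 to 405 min 7 of 8 subunits had a lower mean, and none passed the test. The test called 0 of 8 lower against 2.82% of all genes and 0 of 8 higher against 2.24% (5.06% in either direction). For 5 of 8 (Tcp1, Cct4, Cct5, Cct6a and Cct8) every 405-min sample was below every 135-min sample, and 17.6% of all genes tested showed that separation. For 0 of 8 was every 405-min sample above, against 19.2% of all genes. Log2 fold changes were -0.48 for Cct6a (SE 0.15, 95% interval -0.81 to -0.15, adjusted p = 0.0768 by edgeR), -0.44 for Cct5 (SE 0.15, adjusted p = 0.0992) and -0.37 for Tcp1 (SE 0.14). Cct4 stood at -0.99 (SE 0.40) and Cct7, the only positive one, at 0.22 (SE 0.21).

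The only 405-min sample of set 1 was below all 135-min samples, which are all of set 1, for these 5 subunits and for Cct7. With library set as a covariate Cct6a was at -0.30 (adjusted p = 0.321) and Cct4 at -0.10 (adjusted p = 0.844), and 0 of 8 passed. In set 1 alone, with 1 sample of 405 min and hence given without a test, Cct6a was at -0.47, Cct5 at -0.33, Tcp1 at -0.28 and Cct4 at -0.28. DESeq2 called 3 of 8 lower (Tcp1, Cct5 and Cct6a), against 7% of all genes. On these groups alone edgeR called 4 of 8 lower (these and Cct4), against 10.9% of all genes. Cct6a passed without control 2 (adjusted p = 0.0485) or the third 45-min sample (adjusted p = 0.0421), where 6.03% and 3.64% of all genes passed downward. Cct4 passed without 405-min sample 3 (adjusted p = 0.0443), where 5.85% of all genes did so. An F-test of the 3 time points together called 0 of 8 against 9.69% of all genes, with Cct6a (adjusted p = 0.168) and Cct4 (adjusted p = 0.171) nearest. Without control 2 the F-test called 2 of 8, and the share of all genes in that fit is not given here.

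Across libraries 7 of the subunits varied together and Cct7 did not. Over the 28 pairs the median Pearson's r of log2 CPM was 0.73, from -0.81 for Cct4 with Cct7 to 0.93 for Tcp1 with Cct5 (15 libraries). All pairs of 3434 genes with a mean count of at least 1000 had a median of 0.074. Those genes were not matched to the subunits in GC content. Taking out the group means left the subunits at 0.73, so the subunits also varied together among samples of the same group. Against the mean of the other 7, r was 0.95 for Cct5, 0.95 for Tcp1, 0.89 for Cct2 and Cct6a, 0.80 for Cct3, 0.72 for Cct4, 0.61 for Cct8 and -0.61 for Cct7. These points share library, depth and base composition and the values are a description.

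Base composition went along with much of this. The exons of Tcp1 (42.4% GC), Cct8 (43.3%), Cct4 (44.1%), Cct3 (45.5%), Cct6a (46.4%) and Cct2 (47.1%) are below the median of all genes (49.4%), and those of Cct5 (51.9%) and Cct7 (54.0%) are above it. Pearson's r of log2 CPM with the GC slope of the library was -0.97 for Cct4 and 0.88 for Cct7, with Cct5 at -0.82 despite its higher GC and Cct8 at -0.28. Between the library sets, in the model with group, the coefficient of set 2 against set 1 was -1.30 for Cct4 on the log2 scale (SE 0.15), Cct2 stood at -0.50 (SE 0.095) and Cct7 at 0.40 (SE 0.14). The other 5 lay between -0.34 and -0.23. The summed subunits took 0.57% to 0.64% of all counts in set 1 and 0.43% to 0.52% in set 2.

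**Figure D3:**
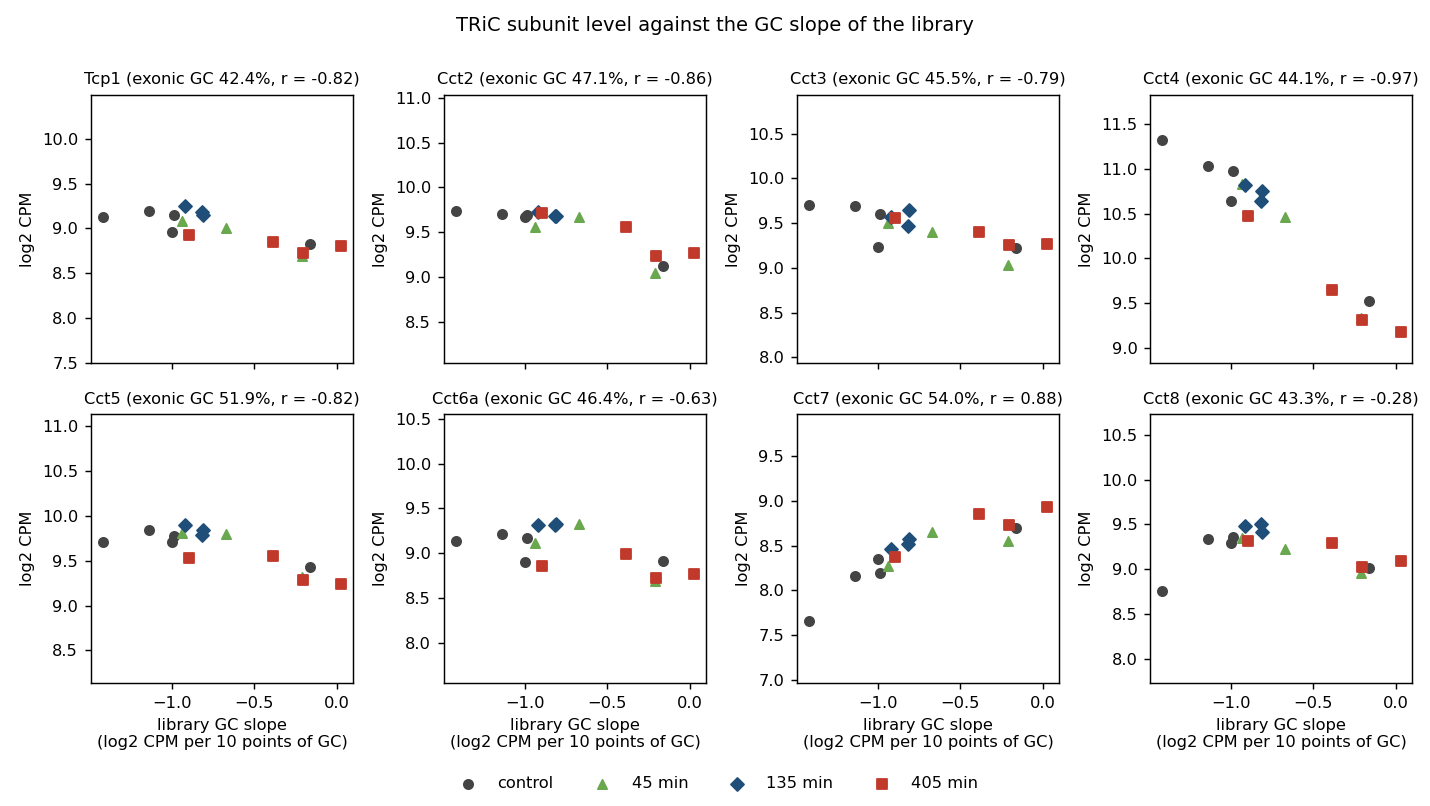
Log2 CPM of each TRiC subunit against the GC slope of the library (log2 CPM per 10 points of exonic GC), with 1 point per library, marked by group, and y axes of equal span. Cct4 comes down steeply from left to right (r = -0.97), Cct7 goes up (r = 0.88), and 3 of the 4 squares of 405 min lie at the right.

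Within library set 1 the median r of the 28 pairs was 0.22, and with each library's GC trend removed it was 0.40. The median over pairs of all genes was not computed in either setting. Some pairs stayed high in set 1 (10 libraries), among them Cct5 with Cct6a (0.83), Tcp1 with Cct5 (0.79) and Tcp1 with Cct6a (0.73). Cct7 with Cct8 was at 0.78 in set 1 but at 0.15 over all 15 libraries. Cct4 with Cct7 stayed low at -0.86. With the GC trend removed, Cct4 with Cct5 was highest (0.98), followed by Cct2 with Cct5 (0.80) and with Cct4 (0.80) and Tcp1 with Cct8 (0.79). In set 1 these pairs were lower, at 0.277, -0.2, 0.256 and 0.218 in the same order. Of the pairs named for set 1, Tcp1 with Cct5 was at -0.385 with the GC trend removed. Cct5 with Cct6a was then at 0.517, Cct7 with Cct8 at 0.715 and Tcp1 with Cct6a at 0.503. Cct4 with Cct7 was at 0.11 with the GC trend removed. Cct6a had a positive r with each other subunit in both of these settings (lowest 0.011, with Cct2 in set 1), and over all 15 libraries with each but Cct7 (-0.33).

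**Figure D4:**
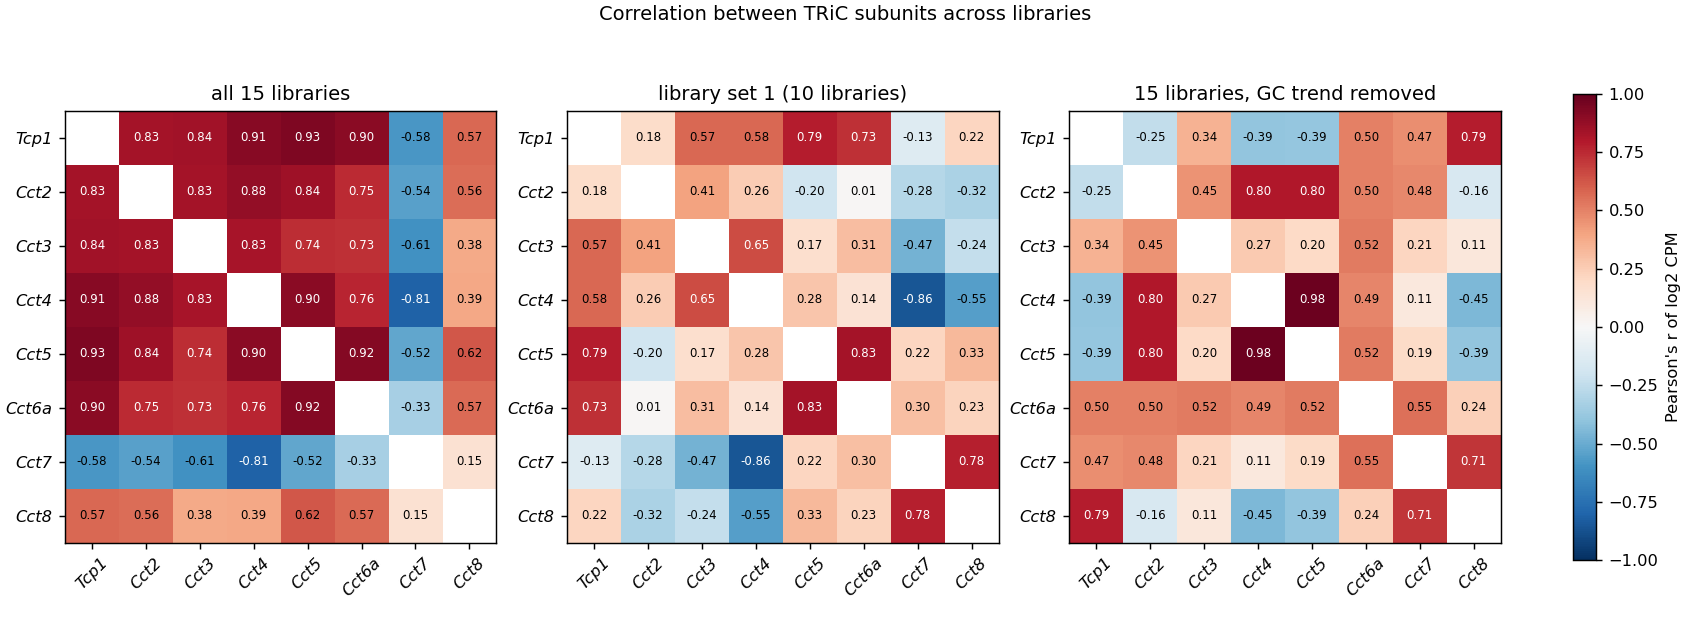
Pearson's r of log2 CPM for the 28 pairs of TRiC subunits over all 15 libraries, over the 10 libraries of set 1, and over 15 libraries with the GC trend of each removed, on a color scale from -1 to 1. The median falls from 0.73 to 0.22 and 0.40. The row of Cct7, negative on the left except with Cct8, is mixed or positive in the other panels.

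The genes that resembled the subunits most were not chaperone partners for the most part. Among 8791 genes with a mean count of at least 100, the closest to the mean subunit profile over 15 libraries were Dis3 (r = 0.99), a catalytic exosome subunit, Eif2s3x (0.98), a subunit of the translation initiation factor eIF2, and Ppid (0.97), a cyclophilin that binds HSP90. Dnajc25, Eri1, U2af1, Narg1l, Rfwd3, Kpna3 and Ddx46 followed at 0.96 to 0.97. None of these 10 passed the test at 135 or 405 min. Their log2 fold changes were 0.15 to 0.26 at 135 min and -0.62 to -0.19 at 405 min, as a description of genes chosen for their likeness. This likeness was not computed within a library set or with the GC trend removed. The part of library set in it was not tested.

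Of the co-chaperones of TRiC 1 gene passed the test. Prefoldin, which carries nascent actin and tubulin to TRiC, had 5 of 6 genes in the tables, and 1 of 5 passed, at 405 min and downward (Pfdn1, -1.44, adjusted p = 0.0474 by edgeR), where 13.4% of all genes passed downward. Pfdn4 (-1.23, adjusted p = 0.0673) and Pfdn5 (0.29, adjusted p = 0.0605) did not. In the model with library set 0 of 5 passed. Of the phosducin-like co-chaperones, which bind TRiC and assist its folding of G protein and cytoskeletal subunits, 0 of 3 passed at any time point, with Pdcl3 at -0.71 at 405 min (adjusted p = 0.0873), and 0 of 3 in the model with library set.

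The relatives of TRiC were also below the threshold. Of the chaperonin paralogues, Mkks, Bbs10 and Bbs12, which act in assembly of the BBSome, could be tested and 0 of 3 passed at any time point. Cct6b, the testis form of the zeta subunit, averaged 0.15 RPKM in controls and was at 0 in some libraries, against 117 RPKM for Cct6a. The mitochondrial chaperonin genes Hspd1 and Hspe1 (HSP60 and HSP10) gave 0 of 2 at any time point, with 0.18 and 0.34 at 135 min and -0.30 and 0.057 at 405 min. Neither list had a call in the model with library set.

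Of 13 actin and tubulin genes, substrates of TRiC, 0 passed at 135 min, and at 405 min 4 rose and 2 fell, against 9.99% and 13.4% of all genes. Tuba4a rose by 1.88, Tubg1 by 1.44 and Tubb2c by 0.85 on the log2 scale, while Tuba1b fell by 1.17. Actb (0.57, adjusted p = 0.282) and Tubb5 (0.74, adjusted p = 0.0888) did not pass. Reads of these near-identical families may be split by counting. The count was also 4 higher and 2 lower with library set as a covariate, against 6.17% and 6.87% of all genes.

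Of the 7 tubulin folding cofactors, which take tubulin over from TRiC, Tbcd (0.70) and Tbcb (0.44) rose at 405 min, against 9.99% of all genes. With library set as a covariate 1 of 7 did so, against 6.17%. Of 9 WD40 substrates, Rptor (1.55), which recruits substrates to mTORC1, rose at 405 min and Gnb1 (-0.62), a G protein beta subunit, fell. Of all genes 9.99% rose and 13.4% fell. Taking library set into the model left 1 higher and 0 lower, against 6.17% and 6.87% of all genes. From 135 to 405 min 2 WD40 genes were higher and 1 lower, 1 actin or tubulin gene was lower and no prefoldin or cofactor gene passed. In that comparison 2.24% of all genes were higher and 2.82% lower. None of these lists had a call at 45 min.

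Of the heat shock genes, 14 of the 16 listed were tested. At 135 min 6 of 14 rose, against 0.564% of all genes, and at 405 min 8 of 14 rose, against 9.99%, with 0 lower at either time. The TRiC counts were 0 of 8 at 135 min and 1 of 8, lower, at 405 min, and the difference between the lists was not tested. At 135 min Hspa1b rose by 1.97, Hsph1 by 1.29, Dnajb1 by 1.14 and Hspa8 by 0.87 on the log2 scale. At 405 min Bag3 rose by 1.496, Hsf1 by 1.46, Hspb8 by 1.39 and Hspa8 by 1.31. Hspa1b stood at -0.97 at 405 min (adjusted p = 0.101). From 135 to 405 min 2 of 14 were higher (Hspb8 by 0.79 and Hsf2 by 0.54) and Hspa1b fell by 2.94 (adjusted p = 0.00632), against 2.24% and 2.82% of all genes. Hspa1b has a near-identical neighbour, Hspa1a, and its value is uncertain. Hspa4 (0.11 and -0.038) and Chordc1 (0.15 and 0.022) passed at neither time. In the model with library set 8 of 14 rose at 135 min and 7 of 14 at 405 min, against 3.06% and 6.17% of all genes. Without library set the median of the heat shock genes was 0.49 at 135 min and 0.73 at 405 min, beside 0.14 and -0.19 for the subunits.

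**Figure D5:**
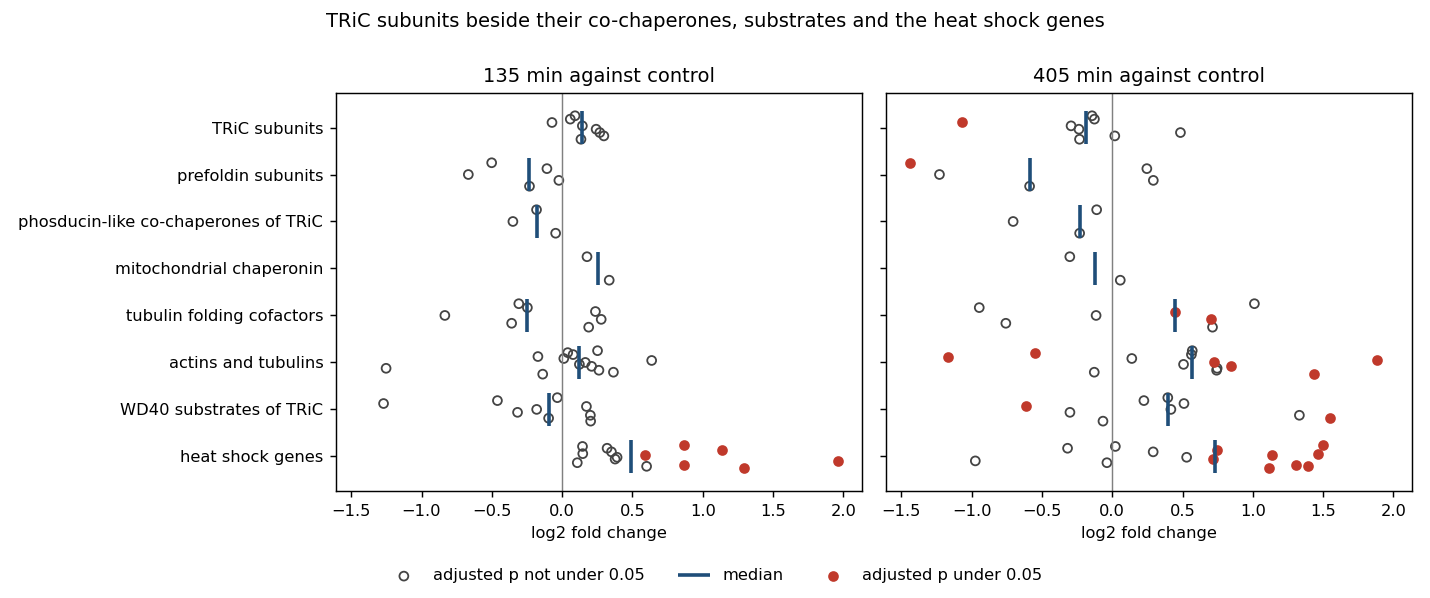
Log2 fold change against control at 135 min (left) and 405 min (right) of each tested gene in 8 lists, filled where the adjusted p was under 0.05, with a bar at the median of the list. The heat shock list has 6 filled points at 135 min and 8 at 405 min, all on the right of 0, and the TRiC row has 1 filled point, Cct4 at 405 min.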

How the data were processed

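Each of the 15 samples had 1 table of 20207 RefSeq genes, made by the authors with mRNA-seq reads aligned to mm9 on DNAnexus. The aligner is not given in the sources used here. The deposited read counts were expected counts (8.7% to 15.6% of a sample's genes held a fraction) and were rounded. The design had assumed whole counts. The RPKM deposited by the authors were used only to set genes side by side. A deposited Z score and a deposited ratio of RPKM to its root mean square were not used.

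Only the 10276 genes whose count was 1 or more in all 15 samples were kept. They were scaled by TMM and fitted by group in edgeR 4.0.16 (glmQLFit, glmQLFTest), and p-values were adjusted by Benjamini-Hochberg over these genes (threshold 0.05). SE is the log2 fold change over the square root of F. Log2 CPM used a prior count of 2. Set tests were not run. Exonic GC came from NCBIM37 with GENCODE vM1 (95.8% of tested genes). The members and lists were chosen with earlier results of these data known. All subunits are named, with up to 4 called and up to 2 uncalled genes of each other list. Near-identical copies were sought with blastn 2.17.0. The 22 replicate pairs differed by a chi-square of at least 12.0 per degree of freedom, so all were kept as separate samples. Alternatives were RLE factors, DESeq2 1.42.0, other filters, only the groups compared, library set, a GC offset, the replicate block and leaving out each sample.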

Additional observations from a re-analysis of the deposited data

Results flagged for a closer look

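The Cct2 level of control 2 stood apart from the other controls. Its log2 CPM was 9.13 (558 CPM), the nearest control was at 9.67 (814 CPM), and this gap was 0.88 of the range of the 5 controls. Control 2 is the control of library set 2. It was the 1 value of this kind in 16 groups of 4 or 5 values (8 subunits in the control and the 405-min groups), where chance flags about 1 in 20.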

How the results depend on the processing

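At 405 min the number of subunits lower was 1. It was 0 with no filter, with filterByExpr, with only the groups compared, with library set as a covariate, in set 1 only, in set 2 only, with the replicate block (Cct4 -1.12, adjusted p = 0.121) and with the block and GC offset together, and 2 with the GC offset (Cct4 and Cct5). With the GC offset 14.9% of all genes were lower at 405 min. The number higher at 405 min was 1 with DESeq2, against 14% of all genes. From 135 to 405 min the number lower was 4 with only the groups compared and 3 with DESeq2, against 10.9% and 7% of all genes. Leaving out 1 sample gave 0 to 2 lower and 0 to 1 higher at 405 min, 0 to 1 lower from 135 to 405 min, and 0 to 2 in the F-test of all times. The median r of 0.73 moved to 0.22 in set 1 only and to 0.40 with the GC trend removed. Why these values moved was not tested.

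Of 816 subunit fold changes under alternatives, 49 changed sign, none of them passing the threshold. With RLE factors Cct8 at 45 min was -0.007, with no filter -0.01 and with DESeq2 -0.008, and with filterByExpr Cct8 at 405 min was -0.009. With library set as a covariate Cct6a was 0.013 at 45 min, Cct3 -0.003 at 135 min, Cct2 0.14 and Cct3 0.062 at 405 min, and from 135 to 405 min Cct2 0.13, Cct3 0.065 and Cct7 -0.093. In set 1 only, Cct5 was 0.042 and Cct6a 0.12 at 45 min, Cct2 -0.001 and Cct3 0 at 135 min, Cct2 0.009 at 405 min, and from 135 to 405 min Cct2 0.01 and Cct7 -0.16. In set 2 only, Cct7 was -0.14 and Cct8 -0.067 at 45 min, and Cct2 0.23 and Cct3 0.079 at 405 min. With the GC offset Tcp1 was 0.062 and Cct6a 0.052 at 45 min, Cct4 0.028 at 135 min, Tcp1 0.12 and Cct3 0.079 at 405 min, and Cct7 -0.12 from 135 to 405 min. With the replicate block and GC offset Tcp1 was 0.031 at 45 min and 0.087 at 405 min, Cct3 0.01 at 405 min and Cct7 -0.13 from 135 to 405 min. Leaving out 1 sample gave at 45 min -0.28 to 0.014 for Cct2, -0.12 to 0.10 for Cct5, -0.16 to 0.15 for Cct6a and -0.085 to 0.12 for Cct8. It gave at 135 min -0.006 to 0.13 for Cct2, -0.005 to 0.11 for Cct3 and -0.27 to 0.086 for Cct4, and at 405 min -0.096 to 0.07 for Cct8.

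Replicate numbers did not pair the samples: deviations of the 19 same-numbered pairs had a mean r of -0.11 (lowest -0.71), and those of 64 other pairs 0.028. The block changed no call but that of Cct4. A fit of 135 min in set 2 was not possible, since that set holds no 135-min sample. The effect of depth on these comparisons was not tested.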
